A study of Mus musculus with 14 samples.

Results

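The transcripts described here are those of 9 genes of the NLRP3 inflammasome and of the early inflammatory cytokines: Nlrp3, Pycard, Casp1, Il1a, Il1b, Il1rn, Il18, Tnf and Il6. They were chosen by name, as the probes that are not controls and whose RefSeq transcript carries 1 of these symbols; the rule reads no measured value, but the genes were picked with earlier results of these data known. The 9 genes stand among 17178 that the array names. The rule found 12 probes of 41174 on the array, and all 12 were among the 29271 tested, those that 3 or more of the 14 arrays read as well above background. Pycard, Il1a and Il1rn each have a pair of probes, and each gene was read at its brightest one.

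The samples are lungs of male C57BL/6N mice, taken 6 months after material was placed in the trachea; the age of the mice is not given in the sources used here. The groups are named Ctrl for phosphate-buffered saline vehicle (3 lungs), VCF for carbon fibre as it was before recycling (4 lungs), CCF for fibre after carbonization (3 lungs) and RCF for fibre after firing (4 lungs), each fibre at 200 µg per mouse. Whole lung was hybridized, 1 lung to an array, at a single dose and a single time, so early responses lie outside the design. The design text describes the samples as biologically independent, and the number of arrays limits the precision of every value below.

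An inflammasome is a protein platform that forms in the cytosol when a sensor such as NLRP3 detects damage, crystals or swallowed particles. The adaptor ASC, encoded by Pycard, links the sensor to the protease caspase-1, which cuts the precursors of interleukin 1 beta and interleukin 18 into their active forms. Durable fibres such as asbestos are known activators of NLRP3 in lung macrophages, and the step is controlled largely at the protein level. The transcripts of Nlrp3, Il1b, Tnf and Il6 are themselves raised by NF-kB signalling, which is called priming.

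The 250 bases before the start site are shown for the members with the widest spread between lungs, Il1b and Il6, and for Il18, which had the smallest p-value against Ctrl. The sequences are RefSeq promoter windows on GRCm38.p6, read 5′ to 3′ on the gene's strand, and capitals mark letters that match a motif on either strand. The motifs searched were the NF-kB pattern GGGNNNNNCC, the AP-1 pattern TGANTCA and the TATA pattern TATAAA.
Il1b, chr2:129371140-129371389, minus strand: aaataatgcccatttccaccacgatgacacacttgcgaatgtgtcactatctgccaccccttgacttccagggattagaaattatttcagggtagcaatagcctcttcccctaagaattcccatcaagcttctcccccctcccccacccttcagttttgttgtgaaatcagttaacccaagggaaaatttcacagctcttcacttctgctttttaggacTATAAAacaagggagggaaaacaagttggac
Il6, chr5:30012864-30013113, plus strand: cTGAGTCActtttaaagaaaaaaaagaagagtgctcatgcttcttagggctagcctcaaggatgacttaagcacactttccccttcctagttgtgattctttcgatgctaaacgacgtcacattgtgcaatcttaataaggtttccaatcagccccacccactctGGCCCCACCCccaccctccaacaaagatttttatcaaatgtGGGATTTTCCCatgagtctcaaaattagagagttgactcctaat
Il18, chr9:50554450-50554699, plus strand: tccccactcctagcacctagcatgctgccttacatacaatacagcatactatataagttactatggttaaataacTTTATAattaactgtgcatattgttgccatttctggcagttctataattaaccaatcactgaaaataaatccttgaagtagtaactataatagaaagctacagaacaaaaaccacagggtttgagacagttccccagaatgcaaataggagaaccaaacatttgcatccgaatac
The Il6 window holds 3 NF-kB matches, of which a pair overlap on opposite strands in the run nearest the start, and 1 AP-1 match at its far end. The Il1b and Il18 windows each hold 1 TATA match and none of the other patterns. Over all 32851 windows of this length, 45.8% hold the NF-kB pattern, 6.75% the AP-1 pattern and 12.4% the TATA pattern, so a match to the first is common. Among the 9 genes, 5 have a window with the NF-kB pattern, 3 with the AP-1 pattern and 4 with the TATA pattern. Some genes have more than 1 window. Counted by window, as those shares are, 6, 3 and 4 of the 12 windows of the members hold the 3 patterns. A match is a description of letters only.

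Levels are log2 of the processed signal minus the 75th percentile of that array, so a level of 0 is the 75th percentile, and a difference is the first group's mean minus the second's. On the 14 arrays that percentile ran from 724.7 to 1347.1 intensity units, 63.1% to 70.6% of probes stood well above background, and no spot was saturated. The main probe of each member was well above background on 14 of 14 arrays. All 7 alveolar type 2 and all 4 tested alveolar type 1 genes of the marker lists were detected on every array. Ctrl replicate 1 stood apart in its neutrophil genes: the mean of the 12 tested genes lay 1.20 above the Ctrl mean there, against -0.61 and -0.59 in the other Ctrl lungs and -1.30 to 0.53 in the fibre lungs. Genes of liver, thymus, adipose tissue and heart varied between lungs too. The liver list stood at 4.69 in CCF replicate 2 and 4.71 in RCF replicate 1, and the adipose list at 2.54 in VCF replicate 1. The thymus list stood at 5.75 in CCF replicate 3, 2.83 in CCF replicate 2 and 2.23 in RCF replicate 1. The liver list had 4 tested genes and the thymus list 2, and in each list only 1 gene was detected on every array. Red blood cell genes (5 in the list, 3 of them detected on every array) were higher on average in the fibre lungs: relative to the Ctrl mean they ran from -0.64 to 0.58 in Ctrl, from 0.87 to 1.63 in VCF, from 0.23 to 1.81 in CCF and from 0.67 to 1.22 in RCF. Their part in the values below was not tested.

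At 6 months none of the 9 genes passed in any comparison (limma on all 4 groups, Benjamini-Hochberg adjusted p under 0.05 over all tested probes). Of all tested probes 0.0102% passed in VCF against Ctrl, 0.00342% in the average of all fibres against Ctrl, and 0% in CCF against Ctrl, RCF against Ctrl, the 3 comparisons of fibres with each other and the test of any difference among the 4 groups. The count of 0 among the members is thus near the background of the whole array. The 3 comparisons with Ctrl share the same Ctrl lungs and are not independent of each other. Before adjustment, the count of members with p under 0.05 was 1 in VCF against Ctrl (Pycard, lower, as were 2.18% of probes), 1 in CCF against Ctrl (Il18, lower, as were 2.72%) and 0 in RCF against Ctrl. It was 1 in CCF against VCF (Il6, lower, as were 4.66%), 0 in RCF against VCF, 1 in RCF against CCF (Il18, higher, as were 4.63%) and 1 for all fibres against Ctrl (Il18, lower, as were 2.36%). The lowest adjusted p of any member in any comparison was 0.523, for Pycard in VCF against Ctrl.

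**Figure D1:**
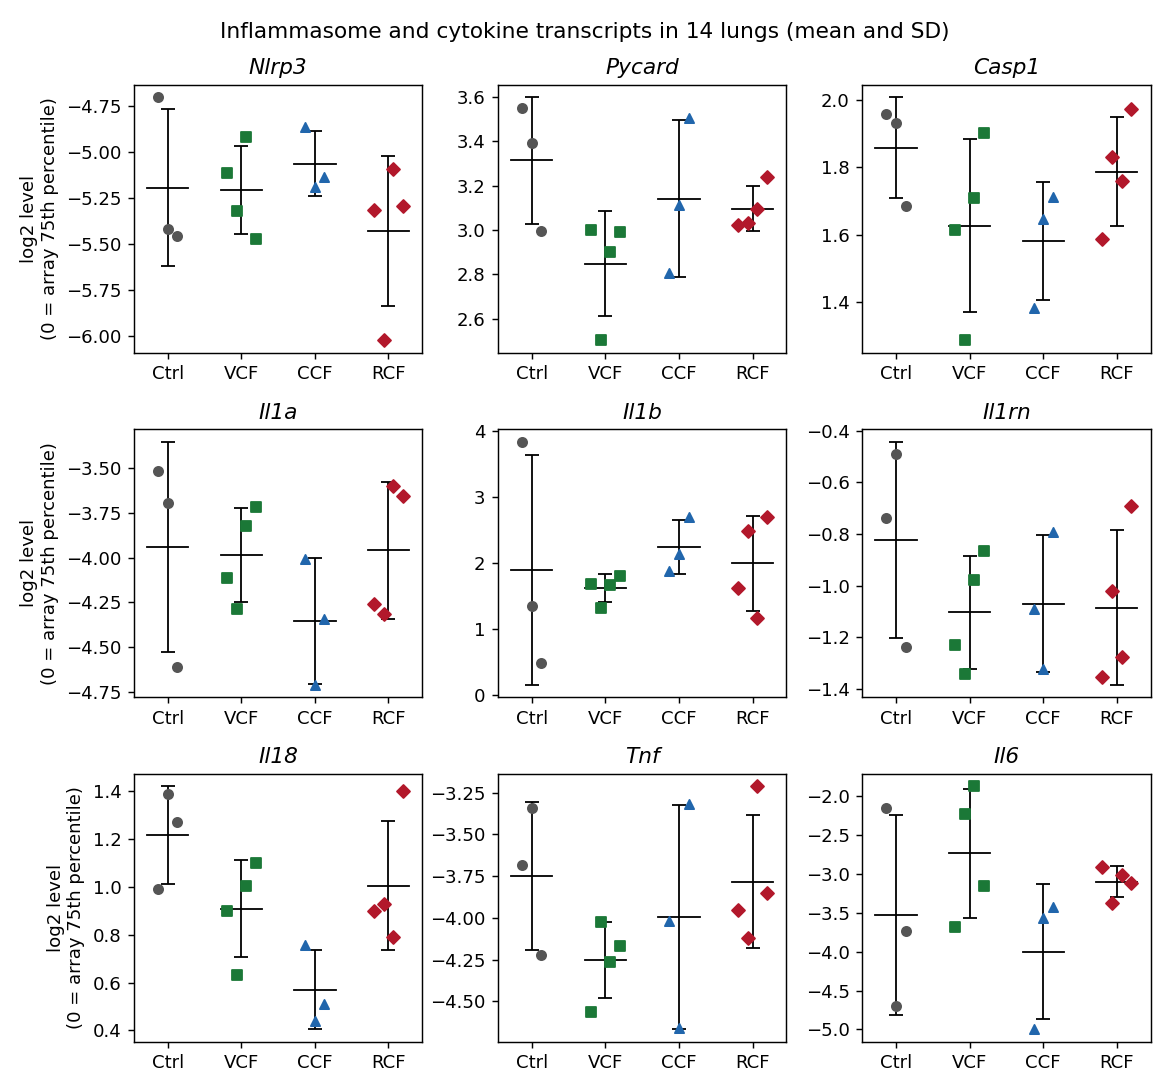
Log2 level of each of the 9 genes (vertical axes, 0 = the array's 75th percentile) in each of the 14 lungs by group, 1 point per lung, with the group mean as a bar and 1 SD as whiskers; the vertical axes differ between panels. Il1b spans 0.49 to 3.84 within Ctrl alone, and the 3 CCF lungs lie below the 3 Ctrl lungs in Il18.

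Nlrp3, the sensor, was read by a dim probe, and its mean in every fibre group was close to that of Ctrl. The processed signal ran from 13.4 to 38.2 units. On the 14 arrays the lowest signal called well above background ran from 7.9 to 12.7. Close levels in so dim a probe do not show that the transcript was unchanged. Its level was -4.70, -5.42 and -5.46 in Ctrl, -5.11, -5.32, -4.92 and -5.47 in VCF, -4.86, -5.19 and -5.13 in CCF, and -5.32, -6.03, -5.09 and -5.29 in RCF. The groups overlapped, with Ctrl replicate 1 the highest of the 14 lungs and RCF replicate 2 the lowest. The difference from Ctrl was -0.013 (SE 0.24) in VCF, 0.13 (SE 0.26) in CCF and -0.24 (SE 0.24) in RCF, each smaller than or close to its error. The 95% interval reached from -0.54 to 0.51 in VCF, from -0.43 to 0.69 in CCF and from -0.76 to 0.29 in RCF. Without Ctrl replicate 1 the differences were 0.23, 0.38 and 0.0074.

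Pycard, the adaptor that joins sensor and protease, was lower on average in all 3 fibre groups, most in VCF. Its level was 3.55, 3.39 and 3.00 in Ctrl, 3.00, 2.50, 2.90 and 2.99 in VCF, 2.80, 3.11 and 3.51 in CCF, and 3.02, 3.03, 3.09 and 3.24 in RCF. In VCF, 3 of 4 lungs lay below every Ctrl lung. The difference in VCF was -0.47 (SE 0.19, 95% interval -0.87 to -0.059, limma adjusted p = 0.523), and in the gene's other probe it was -0.38 (SE 0.22). With slide as a block it was -0.47, while within slides 1, 2 and 3 it was -0.095, -0.40 and -1.05, so the slide that holds Ctrl replicate 1 gave the widest gap. A slide holds at most 1 lung of a group, so each within-slide difference is 1 lung minus 1 lung. Without Ctrl replicate 1 the VCF difference was -0.35 (limma adjusted p = 0.849). The 4 RCF lungs all lay above the 4 VCF lungs, by 0.25 on average (SE 0.17, limma adjusted p = 1.00), a separation in this direction that 1.38% of all probes show. In the gene's other probe 1 of the 4 RCF lungs lay above every VCF lung, and without VCF replicate 2 the difference was 0.13. The 10 genes of the monocyte and interstitial macrophage list, all detected on every array, ran relative to the Ctrl mean from -0.32 to 0.26 in Ctrl, from -0.73 to -0.11 in VCF, from -0.68 to 0.36 in CCF and from -0.49 to -0.11 in RCF. The part of these cells in the values of Pycard, Tnf and Cd14 was not tested.

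Casp1, the protease, had the smallest spread of the 9 genes. Its level was 1.96, 1.93 and 1.69 in Ctrl, 1.61, 1.28, 1.71 and 1.90 in VCF, 1.38, 1.65 and 1.71 in CCF, and 1.59, 1.83, 1.76 and 1.97 in RCF. The groups overlapped throughout. The differences from Ctrl were -0.23 (SE 0.16) in VCF, -0.28 (SE 0.17) in CCF and -0.071 (SE 0.16) in RCF, with limma adjusted p-values of 0.807, 0.804 and 0.997. Their intervals, from -0.57 to 0.11, from -0.64 to 0.086 and from -0.41 to 0.27, were the narrowest among the members.

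Il18, the cytokine that caspase-1 releases and that drives interferon gamma production, had the lowest p-value of the 9 genes against Ctrl. Its level was 0.99, 1.39 and 1.27 in Ctrl, 0.90, 0.63, 1.01 and 1.10 in VCF, 0.76, 0.44 and 0.51 in CCF, and 0.90, 0.93, 0.79 and 1.40 in RCF. Every CCF lung lay below every Ctrl lung and below every RCF lung, and 8 of the 11 fibre lungs lay below every Ctrl lung. The group means were 1.22 ± 0.20 (SD, n = 3) in Ctrl, 0.91 ± 0.20 (SD, n = 4) in VCF, 0.57 ± 0.17 (SD, n = 3) in CCF and 1.01 ± 0.27 (SD, n = 4) in RCF. The probe is printed in 10 spots on each array, and the SD was 0.22 between lungs within groups and 0.054 between spots. Spots of 1 array share RNA, labelling and hybridization, so their SD leaves out the error of those steps.

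The Il18 difference in CCF was -0.65 (SE 0.18, 95% interval -1.04 to -0.25, limma adjusted p = 0.623). It was larger than the spread between lungs, yet 5.07% of all probes had CCF lungs wholly below Ctrl lungs, and it did not pass. With slide as a block it was -0.53 (limma adjusted p = 0.646), and within the slides that hold both groups it was -0.76 on slide 1 and -0.23 on slide 3. In VCF and RCF the differences were -0.31 (SE 0.17) and -0.21 (SE 0.17), and the average of the fibre groups was -0.39 (SE 0.15, limma adjusted p = 0.677). Leaving out each lung in turn kept the CCF difference between -0.76 and -0.56. No such run leaves out CCF replicates 2 and 3 together, which had the lowest Il18 levels, 0.44 and 0.51. The thymus list stood at 2.83 and 5.75 in these lungs, and the liver list at 4.69 in CCF replicate 2. In CCF replicate 1, with Il18 at 0.76, the thymus list stood at -0.0027 and the liver list at 1.59. The part of other tissue in the Il18 values was not tested. RCF exceeded CCF by 0.44 (SE 0.17, limma adjusted p = 0.562); Il18 and Il6 were the 2 members whose RCF lungs all lay above the CCF lungs, where 5.51% of all probes did so. The fall from VCF to CCF, -0.34 (SE 0.17, 95% interval -0.71 to 0.032), did not pass either.

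Genes of alveolar macrophages, the resident phagocytes of the air spaces, moved with Il18 across the groups, though not in every lung. Of the 15 genes in the alveolar macrophage list 13 were tested, and all 13 were detected on every array. Their mean, relative to the Ctrl mean, ran from -0.080 to 0.052 in Ctrl, from -0.41 to -0.21 in VCF, from -0.55 to -0.39 in CCF and from -0.35 to -0.17 in RCF. The lungs with the lowest means, CCF replicates 2 and 3, also had the lowest Il18, at 0.44 and 0.51. RCF replicate 4, with the highest mean of the fibre lungs, had the highest Il18 of all, 1.40, yet its mean, -0.17, lay below every Ctrl lung. Ctrl replicate 1, at 0.028, had an Il18 level of 0.99. That was below VCF replicates 3 and 4, which had 1.01 and 1.10 at means of -0.25 and -0.21. In whole lung, fewer cells of a type and less RNA per cell cannot be told apart, and the part of these cells in the Il18 values was not tested.

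**Figure D2:**
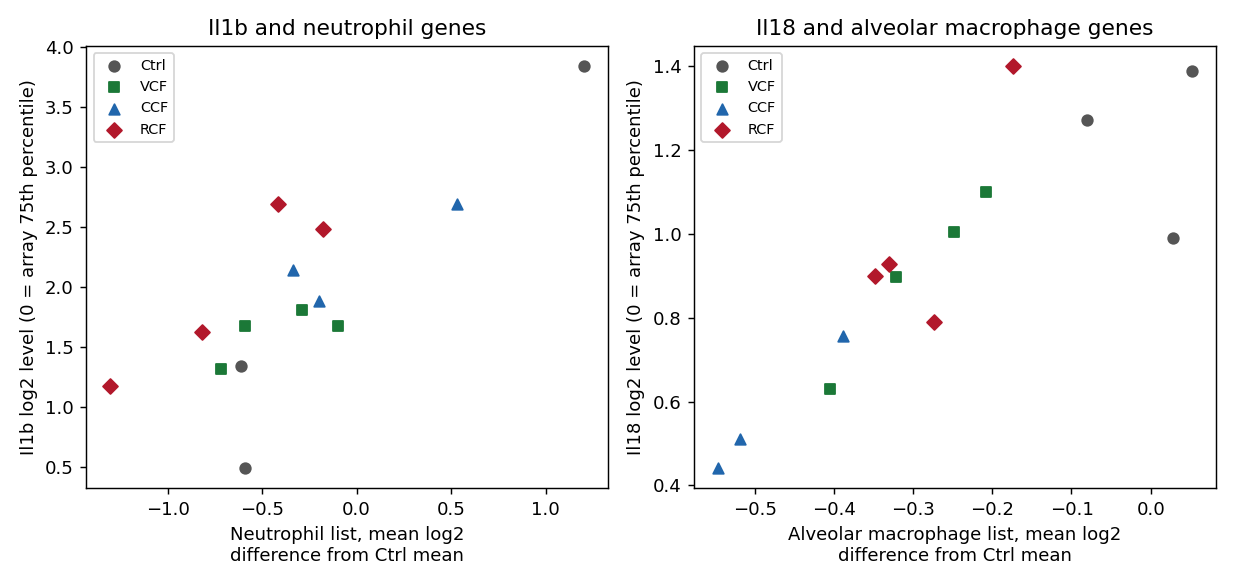
Log2 level of Il1b against the mean of 12 neutrophil genes (left) and of Il18 against the mean of 13 alveolar macrophage genes (right), both means given as log2 difference from the Ctrl mean, with 1 point per lung. Ctrl replicate 1 lies at the upper right on the left, at 1.20 and 3.84. The CCF lungs lie at the lower left on the right, with VCF replicate 2 among them at -0.41 and 0.63.

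Il1b, the fever-inducing cytokine that caspase-1 activates, showed the widest spread of the 9 genes, and the spread lay in Ctrl. Its level was 3.84, 1.34 and 0.49 in Ctrl, 1.67, 1.32, 1.67 and 1.80 in VCF, 1.88, 2.14 and 2.69 in CCF, and 1.62, 2.48, 1.17 and 2.69 in RCF. The Ctrl lungs held both the highest and the lowest value, 10.2-fold apart, and all 11 fibre lungs fell between them. The group means were 1.89 ± 1.74 (SD, n = 3) in Ctrl, 1.62 ± 0.21 (SD, n = 4) in VCF, 2.24 ± 0.41 (SD, n = 3) in CCF and 1.99 ± 0.72 (SD, n = 4) in RCF. The SD between lungs within groups, 0.90, exceeded that of 95.2% of tested probes, while the SD between the probe's 10 spots was 0.051.

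The Il1b differences from Ctrl were -0.27 (SE 0.62) in VCF, 0.35 (SE 0.67) in CCF and 0.10 (SE 0.62) in RCF. The intervals were wide, from -1.62 to 1.08, from -1.10 to 1.79 and from -1.25 to 1.45, so neither a rise nor a fall of 2-fold can be told from no change here. The sign changed with the control lungs kept: the average over all fibres was 0.059 with all 3, 1.03 without Ctrl replicate 1 (limma adjusted p = 0.694) and -0.64 without Ctrl replicate 3. Within slides the sign turned as well, with VCF minus Ctrl at 1.18 and 0.47 on slides 1 and 2 and at -2.52 on slide 3, where Ctrl replicate 1 lay. RCF minus Ctrl was 1.14, 1.35 and -2.67 on the same slides, and CCF minus Ctrl was 2.20 on slide 1 and -1.96 on slide 3. Among the fibres, the 3 CCF lungs all lay above the 4 VCF lungs, by 0.62 on average (SE 0.62, limma adjusted p = 0.949), where 1.26% of all probes did so; without CCF replicate 3 the difference was 0.39.

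Neutrophil genes were high in the same lung as Il1b. S100a8, an abundant neutrophil protein gene, stood at 6.11 in Ctrl replicate 1 and at 4.30 and 3.68 in the other Ctrl lungs. Retnlg, another, stood at 3.36 there and at 1.02 and 0.91 in the others. Not every gene of the list peaked in Ctrl replicate 1. Cxcr2 stood at -0.76 there and at 0.12 in CCF replicate 3, and Mmp9 at 0.10 and 0.40. Csf3r stood at 1.57 and 1.54 in the same 2 lungs, and S100a9 at 8.33 and 7.83. The means of the 12 tested genes of the 13 in the neutrophil list ran from -0.61 to 1.20 in Ctrl, from -0.72 to -0.097 in VCF, from -0.34 to 0.53 in CCF and from -1.30 to -0.18 in RCF, and all 12 were detected on every array. CCF replicate 3, the next highest lung in these genes at 0.53, had an Il1b level of 2.69. RCF replicate 3, the lowest at -1.30, had 1.17. Other lungs did not follow that order: RCF replicate 4, at -0.42, had an Il1b level of 2.69, and RCF replicate 2, at -0.18, had 2.48. Ctrl replicate 3, at -0.59, had the lowest Il1b level of the 14 lungs, 0.49. The part of neutrophils in the Il1b values was not tested.

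Il1a, an alarmin that signals through the same receptor as interleukin 1 beta without needing caspase-1, did not separate the groups. Its level was -3.51, -3.70 and -4.61 in Ctrl, -4.12, -4.29, -3.83 and -3.72 in VCF, -4.01, -4.71 and -4.35 in CCF, and -4.26, -4.31, -3.60 and -3.65 in RCF. The differences from Ctrl were -0.046 (SE 0.28), -0.41 (SE 0.30) and -0.017 (SE 0.28) in VCF, CCF and RCF. The other probe gave -0.19, -0.22 and 0.054, so the pair differed in sign for RCF, where both values were far inside their error. Without Ctrl replicate 1 the main probe gave 0.17, -0.20 and 0.20.

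Il1rn, the secreted antagonist of the interleukin 1 receptor, was lower on average in each fibre group, by nearly the same amount without a covariate. Its level was -0.74, -0.49 and -1.24 in Ctrl, -1.23, -1.34, -0.98 and -0.87 in VCF, -1.09, -1.32 and -0.79 in CCF, and -1.36, -1.02, -1.28 and -0.69 in RCF. Ctrl replicate 3 lay among the fibre lungs, so the groups overlapped. The differences were -0.28 (SE 0.22), -0.25 (SE 0.23) and -0.26 (SE 0.22), with limma adjusted p-values of 0.842, 0.884 and 0.991. Without Ctrl replicate 2 they were -0.12, -0.082 and -0.097. With slide as a block they were -0.23, -0.087 and -0.22. The dimmer probe, well above background on 12 of 14 arrays, gave -0.23, 0.14 and 0.14 and so disagreed in sign for CCF and RCF.

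Tnf, the cytokine that macrophages release first and that acts on nearly every cell of the lung, had its lowest mean in VCF. Its level was -3.68, -3.34 and -4.22 in Ctrl, -4.56, -4.02, -4.27 and -4.17 in VCF, -4.02, -4.66 and -3.32 in CCF, and -3.95, -4.12, -3.21 and -3.85 in RCF. The groups overlapped, with the lowest lung in CCF and the highest in RCF. The differences were -0.50 (SE 0.31, 95% interval -1.18 to 0.17) in VCF, -0.25 (SE 0.33) in CCF and -0.032 (SE 0.31) in RCF, and the limma adjusted p-values were 0.767, 0.933 and 1.00. Without Ctrl replicate 2 the differences were -0.30, -0.044 and 0.17. With slide as a block they were -0.35, -0.031 and 0.12. The SD was 0.44 between lungs and 0.12 between the probe's 10 spots.

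Il6, the cytokine that induces acute phase proteins, was the other member with a wide spread. Its level was -2.15, -4.70 and -3.73 in Ctrl, -3.68, -2.23, -1.87 and -3.16 in VCF, -5.00, -3.57 and -3.43 in CCF, and -2.91, -3.37, -3.01 and -3.11 in RCF. The range over the 14 lungs was 8.78-fold, from CCF replicate 1 to VCF replicate 3, and Ctrl alone covered most of it. The 4 RCF lungs lay close together, with an SD of 0.20, against 1.29 in Ctrl, 0.83 in VCF and 0.87 in CCF. The pooled SD between lungs, 0.84, exceeded that of 94.2% of tested probes and was 9.21 times the SD between spots.

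The Il6 differences from Ctrl were 0.79 (SE 0.58, 95% interval -0.47 to 2.05) in VCF, -0.47 (SE 0.62) in CCF and 0.43 (SE 0.58) in RCF. Without Ctrl replicate 1 they were 1.48 (limma adjusted p = 0.710), 0.21 and 1.11. CCF minus VCF was -1.27 (SE 0.58, limma adjusted p = 0.855), and it was -0.76 without CCF replicate 1 and -0.98 without VCF replicate 3. Within slides 1, 3 and 4 that difference was -1.56, -2.77 and 0.11. The RCF lungs all lay above the CCF lungs, by 0.90 on average (SE 0.58, limma adjusted p = 0.723), and by 0.40 without CCF replicate 1. None of these differences passed.

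**Figure D3:**
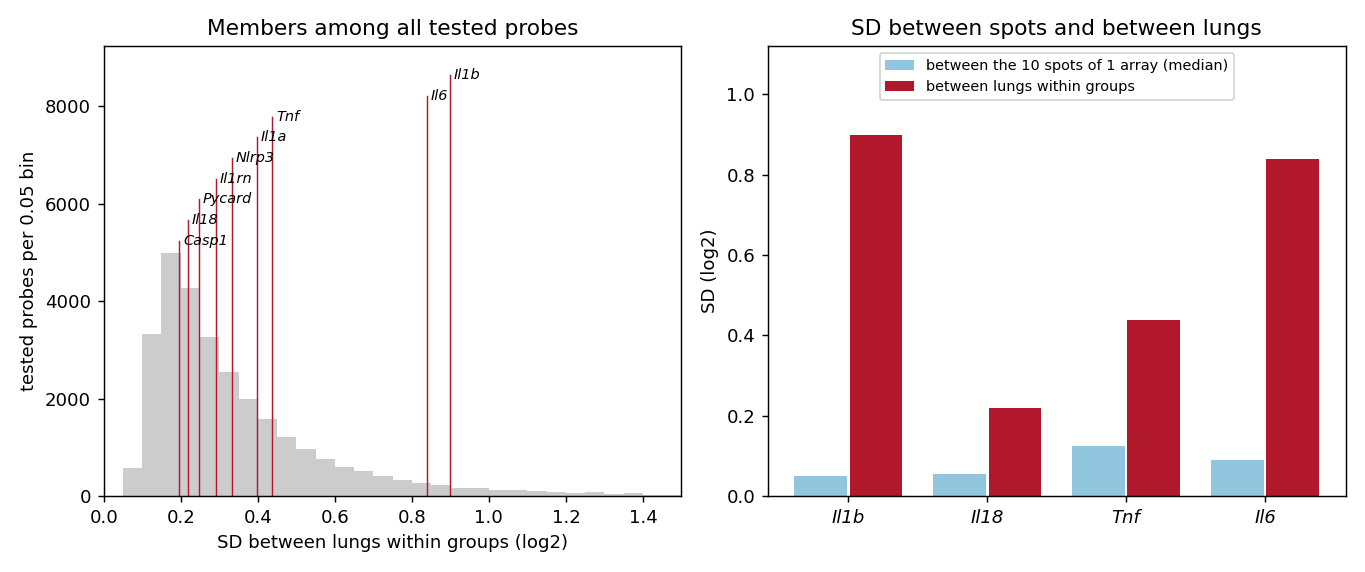
Left, number of tested probes by SD between lungs within groups (log2, bins of 0.05), with lines at the 9 genes; right, SD between the 10 spots of 1 array (median over arrays, blue) and SD between lungs within groups (red) for the 4 genes printed in 10 spots. Il1b at 0.90 and Il6 at 0.84 lie far above the median probe at 0.27, and each red bar exceeds its blue bar; spots of 1 array share RNA, labelling and hybridization.

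Across the 9 genes the fibre groups leaned below Ctrl: 8 differences were below 0 in VCF, 7 in CCF and 7 in RCF, with medians of -0.27, -0.25 and -0.071. Over all tested probes 47.6%, 52.7% and 47.7% were below 0, with medians of 0.014, -0.016 and 0.012. Ctrl replicate 1 was the highest of all 14 lungs in Nlrp3, Pycard, Il1a and Il1b. Without it 5, 6 and 4 of the 9 were below Ctrl in VCF, CCF and RCF, with medians of -0.18, -0.20 and 0.00049. With slide as a block the counts were 6, 7 and 5.

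**Figure D4:**
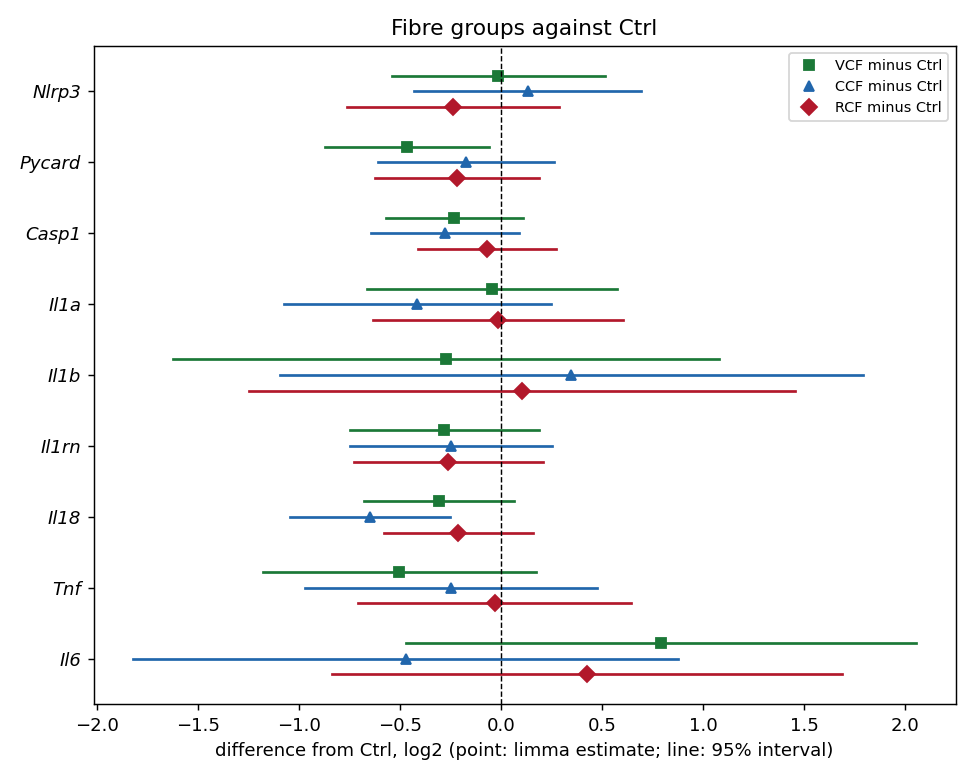
Difference from Ctrl (horizontal axis, log2) for each of the 9 genes in VCF, CCF and RCF, with the limma estimate as a point and the 95% interval as a line. The intervals include 0 except those of Il18 in CCF, from -1.04 to -0.25, and of Pycard in VCF, from -0.87 to -0.059, neither of which passed after adjustment.

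The genes around the members were read in 6 lists of 91 tested genes in all, and 0 of the 91 passed in any comparison; the count with unadjusted p under 0.05 was 7 in VCF, 2 in CCF and 6 in RCF against Ctrl. Of all tested probes 8.23%, 6.62% and 5.35% did so in either direction. The counts in VCF and RCF lie near those shares and the count in CCF lies below. By direction, all 7 in VCF were lower, a larger share than the 2.18% of all probes that were lower. In RCF, Il18r1 was the only 1 of the 6 that was higher, and in CCF Adam17 was higher and Ccl2 lower. The lists were chosen with earlier results of these data known, so these counts are descriptions. Of 17 tested inflammasome partners, 11, 9 and 8 were below Ctrl in VCF, CCF and RCF. Those with the smallest p were Casp8, an apoptosis protease that also cuts interleukin 1 beta, at -0.48 in VCF (SE 0.19, limma adjusted p = 0.529); Nek7, the kinase that binds NLRP3, at 0.43 in CCF (SE 0.21, limma adjusted p = 0.751); and Gsdmd, the pore former of pyroptosis, at -0.31 in RCF (SE 0.15, limma adjusted p = 0.954). The medians of the list were -0.17, -0.012 and 0.00061. Without Ctrl replicate 1 the counts below Ctrl were 10, 8 and 9, and with slide as a block they were 13, 9 and 10.

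Of 16 tested genes of the interleukin 1 family and its receptors, 9, 9 and 13 were below Ctrl in VCF, CCF and RCF, and without Ctrl replicate 1 the counts were 7, 8 and 7. Irak3, an inhibitory kinase of the pathway, was at -0.42 in VCF (SE 0.16, limma adjusted p = 0.502). Il18r1, the receptor chain that binds interleukin 18, was at 0.42 in RCF (SE 0.16, limma adjusted p = 0.864) and 0.047 in CCF. Il1rap, the shared accessory receptor chain, had the smallest p of the list in CCF, but the probe was not well above background in CCF replicate 2, so its difference there has no exact size. The other 13 lungs lay between -3.92 and -1.92.

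In the 12 genes of TNF signalling, 8, 8 and 7 were below Ctrl, and 7, 8 and 6 without Ctrl replicate 1. Adam17, the sheddase that frees membrane-bound TNF, was at 0.77 in CCF (SE 0.23, limma adjusted p = 0.637), with levels of -0.29, 0.32 and 0.25 there against -0.76, -0.57 and -0.69 in Ctrl. Birc2, a ubiquitin ligase of the receptor complex, was at 0.23 in VCF and -0.27 in RCF, and RCF lay -0.50 from VCF (SE 0.13, limma adjusted p = 0.712). In the 10 tested genes of interleukin 6 signalling, 7, 5 and 5 were below Ctrl, and 6, 5 and 7 without Ctrl replicate 1. Il11, a cytokine of the same family as interleukin 6, was at -0.46, -0.34 and -0.39, with adjusted p of 0.504, 0.792 and 0.931 in limma.

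Of 21 tested priming receptors and NF-kB components, 15 were below Ctrl in each fibre group, and 12, 14 and 11 without Ctrl replicate 1. Cd14, the co-receptor that hands bacterial lipid to TLR4, had the smallest p of that list in VCF. Its level was 3.32, 3.33 and 2.93 in Ctrl, 2.71, 2.77, 2.49 and 2.56 in VCF, 2.64, 3.00 and 2.92 in CCF, and 2.85, 2.41, 2.91 and 2.76 in RCF, so that every VCF and RCF lung lay below every Ctrl lung. Of all tested probes 2.66% had VCF lungs wholly below Ctrl lungs and 3.88% had RCF lungs so. The difference was -0.56 in VCF (SE 0.16, limma adjusted p = 0.338), -0.34 in CCF and -0.46 in RCF. Ikbkg, the regulatory subunit of the IkB kinase, was at -0.48 in CCF (SE 0.22, limma adjusted p = 0.749).

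The NF-kB target genes include chemokines, adhesion molecules and acute phase proteins. They had the lowest medians of the 6 lists in the fit reported here, with all 14 arrays and no covariate. Of 15 tested, 14 were below Ctrl in VCF, 15 in CCF and 13 in RCF, with medians of -0.35, -0.24 and -0.18, and 0 passed. Without Ctrl replicate 1 the counts were 10, 11 and 8 and the medians -0.098, -0.090 and -0.0061, above those of the priming list, which were -0.13, -0.17 and -0.0079. With slide as a block the counts were 14, 11 and 11 and the medians -0.26, -0.032 and -0.13. In CCF that median lay above those of the inflammasome partners (-0.069), the priming list (-0.068) and the interleukin 1 family (-0.054). It lay below those of TNF signalling (0.0027) and interleukin 6 signalling (0.078). Lcn2, an iron-scavenging protein of inflamed airway and neutrophils, was at -0.88, -0.24 and -1.22 in VCF, CCF and RCF, with a limma adjusted p of 0.808 in RCF. Sele, the endothelial selectin that slows passing leukocytes, was at -1.02 in VCF (SE 0.45, limma adjusted p = 0.584) and was well above background on 11 of 14 arrays. Ccl2, the monocyte attractant, was at -0.35, -0.67 and -0.60, with a limma adjusted p of 0.744 in CCF.

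**Figure D5:**
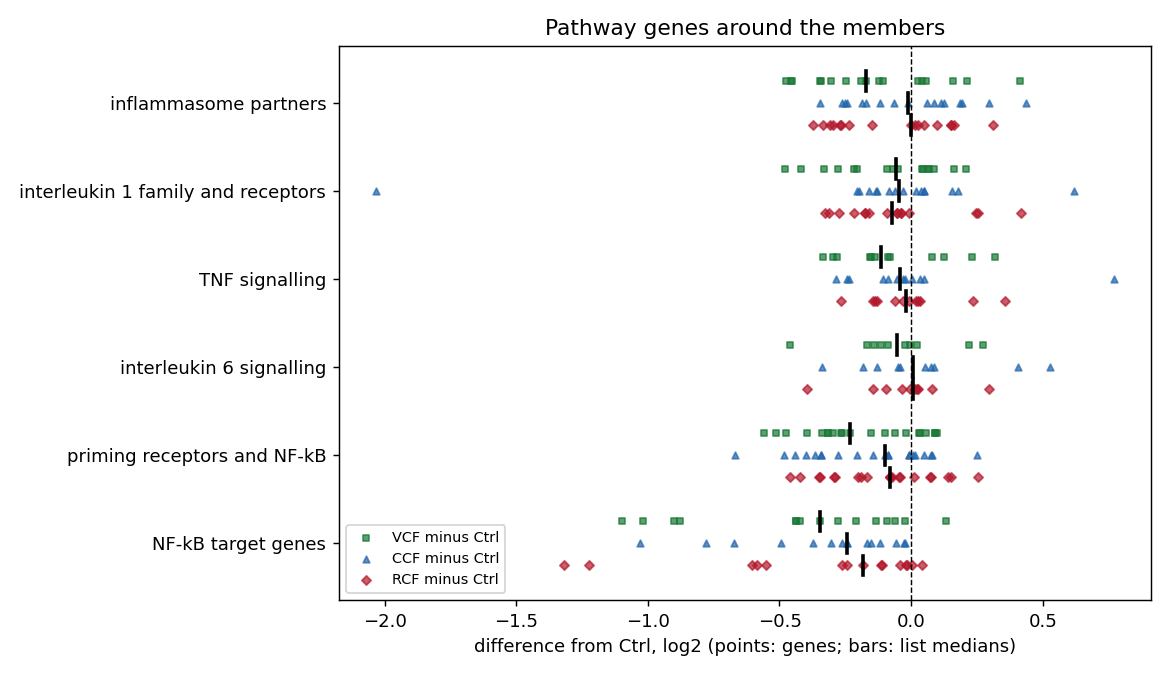
Difference from Ctrl (horizontal axis, log2) of each tested gene of the 6 pathway lists in VCF, CCF and RCF, 1 point per gene, with the list median as a black bar. The NF-kB target genes have medians of -0.35, -0.24 and -0.18; without Ctrl replicate 1, which is included in the plot, these are -0.098, -0.090 and -0.0061.

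The members varied partly together from lung to lung. As a description over the 14 lungs, which share array and RNA sample for every gene, the correlation of deviations from the group means was highest for Pycard and Casp1 (r = 0.82), Casp1 and Il1rn (r = 0.74) and Il1a and Il1rn (r = 0.66). Il1b and Tnf were near 0 (r = 0.064), as were Il1a and Il6 (r = 0.0010), and Il18 and Il6 ran opposite ways (r = -0.52). Over 13057 other genes, the closest patterns to Il1b by the same measure were those of Trem1 (r = 0.97) and Mefv (r = 0.95), the latter a gene of the inflammasome partner list. The SD of Il1b was 1.74 in Ctrl against 0.21, 0.41 and 0.72 in VCF, CCF and RCF, so both values lean on the Ctrl lungs. The closest to Il18 were Atp6v0d2 (r = 0.94), a gene of the alveolar macrophage list, and Cers2 (r = 0.93). Those closest to Pycard were Pglyrp1 (r = 0.95) and Susd3 (r = 0.94), to Casp1 Trip13 (r = 0.93) and Rfc5 (r = 0.92), and to Il1a Apobec3 (r = 0.94) and Flt3 (r = 0.92). For Il1rn they were Rap2b and Cd300c2 (r = 0.93 each), for Tnf Ntrk3 (r = 0.85) and Ccnb1 (r = 0.84), and for Il6 Ch25h (r = 0.86) and Tgm3 (r = 0.85). For Nlrp3 they were Olfr933 (r = 0.93) and Olfr609 (r = 0.91), but the Nlrp3 probe was dim, at 13.4 to 38.2 units. Each of these genes was picked as the closest of 13057 over only 14 lungs, so a high r is no sign of shared regulation.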

How the data were processed

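RNA of 14 lungs, carrying Cy3, was read on 1-colour Agilent mouse arrays of the 44K design. The deposited scanner files give an intensity for every spot; per the file headers it was made by Feature Extraction 10.7.3.1, with background already subtracted. The authors' deposited table of log2 values holds 27496 probes and includes all 12 probes of the members; 99.8% of its values equal log2 of the deposited intensity minus 1 constant per array within 0.01.

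Here log2 of the processed intensity was centred on the 75th percentile of its array, taken without control probes. The 1639 control spots were left out, and spots of 1 probe were averaged. Spot readings marked as outliers (1649) were left out of that average, unless every spot of the probe on that array was marked. Symbols came from RefSeq accessions matched to a table of GRCm38.p6, which named 24844 probes, and 16330 had none. Probes well above background on at least 3 of 14 arrays were tested with limma 3.58.1 in R 4.3.3, all groups in 1 fit with no covariate, two-sided, with Benjamini-Hochberg adjustment over 29271 probes. The fit has 10 residual and 2.37 prior degrees of freedom and was tested on simulated data. Plots come from matplotlib 3.10.9 under Python 3.11.15, and data.table, version 1.17.8, read the files.

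Arrays lay on 4 slides, read from the file headers, and slide 4 holds no Ctrl lung. No slide holds more than 1 lung of a group, so within-slide differences compare single lungs. The members and all gene lists were chosen with earlier results of these data known, so counts over them are descriptions. Named genes of a list are those with the smallest p in each comparison with Ctrl, with Lcn2, Ccl2, Cd14, Birc2 and Il18r1 also given in other comparisons. S100a8, S100a9, Retnlg, Csf3r, Cxcr2 and Mmp9 were named after their values were seen, and so were the single lungs discussed. Likeness is the correlation of residuals from the group means. Alternatives were quantile, cyclic loess and normexp processing, the authors' table, other filters on dim probes, slide or replicate number as a block, only the groups compared, array weights, a trended and robust prior, the mean over probes, 4 arrays left out and each array left out. Keeping the outlier spots was added after the data were seen. Normexp, with an offset of 50, used the median spot intensity.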

Additional observations from a re-analysis of the deposited data

How the results depend on the processing

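No member passed under any alternative, and the smallest limma adjusted p was 0.270, for Il18 in CCF against Ctrl without CCF replicate 1. Of the 582 alternative values of single members, 539 kept their direction and 43 turned. Normexp moved the median of all probes in CCF against Ctrl to -0.23, so values under it are read against that shift. All differences below are against Ctrl on the log2 scale, and the cause of each turn was not tested.

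Nlrp3 in VCF was 0.046 with normexp, 0.053 with slide as a block, 0.16 with array weights and -0.15 to 0.23 with each array left out. In CCF it was -0.62 with normexp and -0.0015 to 0.38 with each array left out, and in RCF the range was -0.37 to 0.0074. For all fibres it was 0.015 with slide as a block, 0.11 with array weights, 0.0032 without 4 arrays rich in transcripts of other tissue and -0.17 to 0.21 with each array left out. Il1a in VCF was 0.095 with normexp, 0.059 with slide as a block, 0.090 with array weights and -0.38 to 0.17 with each array left out. In RCF it was 0.088 with slide as a block, 0.018 with array weights, 0.084 without the 4 arrays, 0.018 as the mean over its probes and -0.35 to 0.20 with each array left out. For all fibres it was 0.0042 without the 4 arrays and -0.49 to 0.054 with each array left out.

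Il1b in VCF was 0.29 with array weights and -0.97 to 0.70 with each array left out; in CCF it was -0.0066 without the 4 arrays and -0.35 to 1.32. In RCF the range was -0.60 to 1.08, and for all fibres it was -0.64 to 1.03, with -0.025 without the 4 arrays. Tnf in CCF ranged from -0.59 to 0.083 with each array left out. In RCF it was 0.043 with normexp, 0.12 with slide as a block, 0.023 without the 4 arrays and -0.27 to 0.17 with each array left out. Il6 in CCF ranged from -1.06 to 0.21. In RCF it was -0.033 with normexp and ranged from -0.16 to 1.11, and for all fibres it was -0.22 with normexp, -0.0028 without the 4 arrays and -0.34 to 0.94 with each array left out. Pycard, Casp1, Il1rn and Il18 kept their direction in these runs.

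Replicate numbers were not taken as pairs in the reported fit. Over 19 same-numbered pairs the correlation of deviations ran from -0.37 to 0.33, with 6 over 0.1. Differently numbered pairs were not compared, so these values cannot show whether the numbers pair the lungs. With the replicate block, 6 probes passed in VCF against Ctrl and 0 for all fibres. Nlrp3 in VCF was 0.0075, Il1b in RCF was -0.045 and Il1b for all fibres was -0.039 under that block, and no member passed.

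The count of probes passing in VCF against Ctrl, 3 as reported, was 0 with quantile, cyclic loess or normexp processing and without the 4 arrays. It was 1 with slide as a block or with only the groups compared, 5 with no filter on dim probes, 6 in the authors' table or with detection on at least 7 arrays, 7 with array weights and 0 to 16 with each array left out, 16 being without CCF replicate 1. For all fibres, 1 as reported, it was 0 with quantile, cyclic loess, normexp or slide as a block, 2 with no filter, 3 with array weights or without the 4 arrays, 5 with a trended and robust prior and 0 to 12 with each array left out. In CCF against Ctrl it was 1 without the 4 arrays and 0 to 1 with each array left out; in RCF against Ctrl 1 with no filter or array weights and 0 to 10. In CCF against VCF it was 2 without the 4 arrays and 0 to 1, in RCF against VCF 1 with slide as a block, 3 with array weights and 0 to 1, and in RCF against CCF 2 without the 4 arrays and 0 to 3. For any difference among the 4 groups it was 1 with no filter, 1 without the 4 arrays and 0 to 4. Without the 4 arrays, CCF rests on 1 lung, assumed to vary like the others.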
